A study of Triticum aestivum with 6 samples.

Results

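Glutathione transferases are the enzymes that join the tripeptide glutathione to reactive or foreign compounds, and bread wheat carries many genes for them across its A, B and D genomes. The genes described here were chosen by the first protein name of their best UniProt match in the deposited annotation, which had to read glutathione S-transferase or glutathione transferase. Of 83219 genes in the table, 271 met that rule. By the matched entry, 166 belonged to the tau class, 79 to phi, 13 to zeta, 5 to the dehydroascorbate reductases (DHAR), 3 to theta, 3 to the TCHQD class and 2 to an omega-like class. For 40 of the tau genes the protein name does not state the class, which was taken from general knowledge of the entry. These were matches to maize GST 23 and Bronze-2 and to tobacco, potato and soybean entries. First names such as glutathione S-transferase 1 or 4 do not state the class either, and those genes were placed by the matched entry. No measured value entered the rule, but the family was put forward with results of the same comparison known, so its counts are given as a description beside those of all genes. A separate division into abundant, middle and weak genes was chosen by the mean TPM over all 6 libraries.

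The RNA came from roots of Triticum aestivum, wild type JW1. Every seedling had germinated for 3 days, had its endosperm removed, was kept on 2 mM nitrate for 3 days and was then starved of nitrogen for 2 days. The last step was 3 h in medium with either 2 mM KCl (group 0N, 3 libraries) or 2 mM of the salt that the labels write as KNO (group 2N, 3 libraries). Chloride therefore differed together with nitrate, and the effects of the 2 ions cannot be told apart. The labels number the libraries of a group 1 to 3 without saying whether they are independent cultures. The p-values below therefore reflect the spread among these samples, which may be technical.

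Tau and phi are the large plant-specific classes, best known for conjugating herbicides and for their induction by stress, auxin and herbicide safeners. Their conjugates are moved into the vacuole by transporters of the ABC C family. The smaller classes have defined housekeeping reactions: zeta enzymes act in tyrosine breakdown, DHAR enzymes regenerate ascorbate from dehydroascorbate, and theta enzymes can reduce organic hydroperoxides. A wheat gene is named here by the protein it resembles most, written as "GSTU6-like", which states similarity and not a curated wheat symbol.

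Total counts were 16208306 to 16426359 per 0N library and 17234841 to 17645560 per 2N library, and replicates of a group correlated at a Spearman rho of 0.980 to 0.986 across genes. The high-affinity nitrate transporter 2 genes, which are induced by nitrate in roots, summed to 33.6 to 47.7 CPM (read counts relative to the scaled library size) in 0N and 1483 to 2521 CPM in 2N, with 5 of 36 genes at 0. A label of every sample also names leaf tissue. The 7 genes of Casparian strip membrane proteins, which mark the root endodermis, were all detected and summed to 107.2 to 136.6 CPM in 0N and 155.6 to 201.7 CPM in 2N. The 25 nicotianamine synthase genes (2 at 0) summed to 78.9 to 83.6 CPM in 0N and 50.6 to 74.0 CPM in 2N. Transcripts of the photosynthetic apparatus were present in both groups, and their ranges were lower in 2N, with overlap for Rubisco and photosystem I. The 17 genes of the Rubisco small chain (6 at 0) summed to 44.0 to 112.5 CPM in 0N and 23.2 to 53.3 CPM in 2N, the 69 chlorophyll a-b binding protein genes (11 at 0) to 93.2 to 196.7 CPM and 50.0 to 85.9 CPM, and the 18 photosystem I subunit genes (none at 0) to 34.7 to 74.3 CPM and 17.5 to 38.5 CPM. Most transferases that changed were also lower in 2N, and the part of these markers in the results below was not tested. In RNA from whole roots, fewer cells of a type and less RNA per cell cannot be told apart.

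Most changes in the family were falls. Of the 271 genes, 262 had a count, and 203 had enough counts to be tested. By edgeR's quasi-likelihood test, Benjamini-Hochberg adjusted across the 54313 genes tested and called under 0.05, 100 of the 203 fell with nitrate, 11 rose and 92 did not pass. Falls made up 49.3% of the tested transferases, while 7.93% of all tested genes fell and 7.57% rose. The fall was at least 2-fold (a log2 fold change of -1 or below) in 71 transferases, a size reached by 3.17% of all tested genes. The median log2 fold change, 2N against 0N, was -0.62 in the family, with a range from -3.53 to 1.50, and 0.0024 over all tested genes. Of the 203, 163 (80.3%) had a log2 fold change below 0, against 49.3% of all tested genes. The 3 libraries of 0N and the 3 of 2N did not overlap in 132 of the 203, including all 111 genes that passed. The share without overlap was 32.4% of all tested genes.

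The whole family summed to 6416, 7103 and 6153 CPM in the 0N libraries and 5713, 4849 and 5413 CPM in the 2N libraries. The lowest 0N library was above the highest 2N library. The mean sum in 0N was 6557 ± 490.2 CPM, against 5325 ± 438.4 CPM in 2N (SD, n = 3), a log2 ratio of -0.30, which is smaller than the median change of single genes. In the deposited TPM, which are per unit length and lack the scaling of library size used for CPM, the sum was 8345 in 0N and 6147 in 2N.

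The 68 untested genes were 53 tau, 14 phi and 1 zeta gene, and the highest total over the 6 libraries among them was 58 counts. A gene can pass the count filter through a single group, in which case its call is not independent of the filter. The filter asked for 0.594 CPM in 3 libraries. Of the 203, 165 reached that level in all 6 libraries, and 79 of these fell and 10 rose, so that 47.9% fell against 7.51% of the 48875 genes of the table that reached it in all 6. A further 32 reached it in every 0N library but not in every 2N library (21 fell), 4 in every 2N library alone (1 rose) and 2 in neither set.

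**Figure D1:**
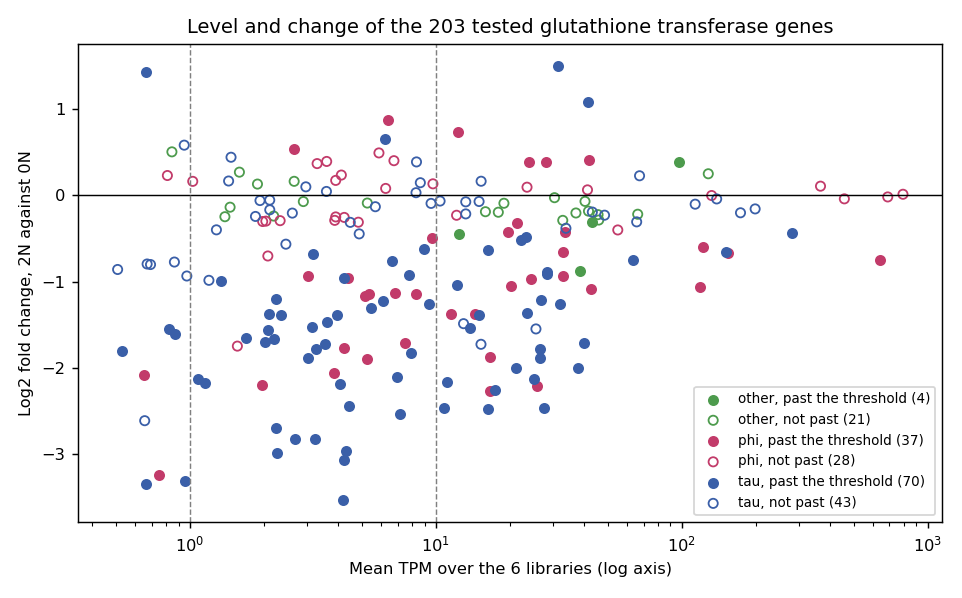
Each circle is 1 of the 203 tested transferase genes, placed by its mean TPM over the 6 libraries (horizontal, log axis) and its log2 fold change, 2N against 0N (vertical), and coloured by class. Filled circles passed the threshold, dashed lines mark 1 and 10 TPM, and most filled tau and phi circles lie below 0, while the highest phi levels on the right include 3 open circles close to 0.

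The share of tested members that fell was highest in tau, followed by phi and the rest. In the tau class 66 of 113 tested genes fell (58.4%), 4 rose and 43 did not pass, with a median log2 fold change of -0.99, and 52 fell at least 2-fold. In the phi class 31 of 65 fell (47.7%), 6 rose and 28 did not pass, with a median of -0.40, and 19 fell at least 2-fold. The 6 phi rises became 1 by limma-trend on log2 TPM and 3 without 0N replicate 1. In the remaining classes together 3 of 25 fell, 1 rose and 21 did not pass, with a median of -0.18. The differences between classes were not tested.

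Summed levels followed the same order. Tau genes summed to 2234, 2470 and 2179 CPM in 0N and 1744, 1431 and 1682 CPM in 2N, and the groups did not overlap. Phi genes summed to 3480, 3879 and 3278 CPM in 0N and 3242, 2725 and 3040 CPM in 2N, with the lowest 0N library just above the highest 2N library. The other classes summed to 701.8, 753.6 and 695.7 CPM in 0N and 727.6, 693.3 and 691.4 CPM in 2N, and the groups overlapped. The log2 ratio of the mean sums was -0.50 for tau, -0.24 for phi and -0.03 for the others. The last value was -0.12 with CPM on library totals and -0.18 with the deposited TPM. On library totals the median log2 fold change of all tested genes was -0.093, against 0.0024 with the scaled library sizes.

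The tau fall was mainly that of a single large group. Rice GSTU6, which UniProt also lists as a cold-induced protein, was the best match of 99 wheat genes. Of 71 tested GSTU6-like genes, 49 fell, 22 did not pass and none rose (1 rise at an unadjusted p under 0.05, none with DESeq2), with a median log2 fold change of -1.26. Together the 99 genes gave 1522, 1591 and 1427 CPM in 0N and 993.5, 866.3 and 959.9 CPM in 2N. The groups were far apart, with means of 1513 ± 82.4 CPM and 939.9 ± 65.9 CPM (SD, n = 3).

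The most abundant tau gene, the GSTU6-like TraesCS7D02G030700 (279.8 TPM), was at 334.6, 355.9 and 309.6 CPM in 0N and at 275.7, 206.0 and 255.5 CPM in 2N. It fell 1.36-fold (log2 fold change -0.44 ± 0.11 SE, edgeR adjusted p = 0.016), without overlap of the groups. That call was lost in 2 of 13 other settings (adjusted p 0.0027 to 0.052). Other abundant GSTU6-like genes differed: TraesCS1D02G189800 (173.5 TPM, log2 fold change -0.20) and TraesCS7D02G465400 (138.8 TPM, -0.04) did not pass. TraesCS1A02G186700 (151.1 TPM), which lay between them in level, fell (log2 fold change -0.66 ± 0.10 SE, edgeR adjusted p = 0.00051). Among weaker GSTU6-like genes, TraesCS7D02G044500 was at 37.8, 32.0 and 33.5 CPM in 0N and at 6.31, 5.94 and 6.41 CPM in 2N, a 5.53-fold fall (log2 fold change -2.47 ± 0.11 SE, edgeR adjusted p = 1.6e-09). The spread within each group was small beside the gap between them.

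A set of similar genes on the chromosomes of group 6 fell by similar amounts. TraesCS6B02G167600 was at 13.02, 20.1 and 22.2 CPM in 0N and 2.82, 4.36 and 2.72 CPM in 2N. TraesCS6D02G127700 was at 16.1, 14.7 and 15.9 CPM in 0N and 3.12, 3.08 and 2.24 CPM in 2N. TraesCS6A02G139100 was at 13.2, 18.4 and 13.9 CPM in 0N and 3.54, 4.07 and 2.54 CPM in 2N. Their log2 fold changes were -2.48, -2.46 and -2.16, and in each of them every 0N library was well above every 2N library. TraesCS1A02G016800 (24.6, 18.8 and 20.4 against 4.63, 4.596 and 4.11 CPM) and TraesCS4D02G295400 (28.7, 29.2 and 29.1 against 5.83, 8.495 and 7.38 CPM) were the other GSTU6-like genes among the 8 largest falls at a mean of at least 5 CPM. Among all members, the lowest log2 fold change was that of the GSTU6-like TraesCS1D02G014500, which was at 5.14 ± 1.23 CPM without nitrate and at 0.438 ± 0.394 CPM with it (SD, n = 3). Its 2N mean lay below the 0.594 CPM of the count filter, which it passed through its 0N libraries. The size of this fall therefore rests on 2N values near the floor.

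Smaller tau groups fell as well. All 5 genes like Arabidopsis U17, which in that species is linked to light signalling and stress tolerance, fell, and together they gave 55.1, 62.2 and 56.6 CPM in 0N and 28.0, 24.3 and 27.8 CPM in 2N. Their log2 fold changes ran from -2.19 to -0.89. Of the 4 tested genes like soybean GST 3, 3 fell, and the remaining gene (TraesCS2B02G609600, log2 fold change -2.61 ± 0.77 SE) had an edgeR adjusted p of 0.054. Both tested genes like the auxin-induced tobacco protein PCNT107 fell. Those like its relative PCNT103, TraesCS4A02G469800 and TraesCS7A02G021900, had log2 fold changes of -1.73 and -1.49 but standard errors of 0.43 and 0.45, and did not pass (edgeR adjusted p = 0.058 and 0.103; both passed with DESeq2).

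Other tau genes did not pass. The 3 genes like japonica rice GSTU1, on 5A, 5B and 5D, gave 331.5, 524.5 and 412.5 CPM in 0N and 438.9, 310.6 and 381.4 CPM in 2N together, a wide spread in both groups that overlapped. The 4 tested genes like the auxin-induced tobacco protein PCNT110 summed, with the untested member, to 30.2 ± 3.05 CPM without nitrate and 30.1 ± 2.67 CPM with it (SD, n = 3). None of these 7 tested genes passed, none had an unadjusted p under 0.05, and none passed with DESeq2.

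The largest rise in the family was also a tau gene. TraesCS3D02G486200, most similar to Arabidopsis U5, was at 19.8, 19.96 and 16.9 CPM in 0N and at 54.1, 47.7 and 58.4 CPM in 2N. It rose 2.83-fold (log2 fold change 1.50 ± 0.11 SE, edgeR adjusted p = 3.7e-07), and every 2N library was more than double any 0N library. The other U5-like gene fell, with a log2 fold change of -0.52.

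Maize GST 23, a tau enzyme, was the best match of 12 genes that moved in both directions. TraesCS3B02G540100 was at 15.9, 18.6 and 18.2 CPM in 0N and at 40.2, 30.7 and 40.9 CPM in 2N (log2 fold change 1.09 ± 0.12 SE, edgeR adjusted p = 2.3e-05), without overlap. Its neighbour by identifier, TraesCS3B02G540200, rose as well, by 0.66, a call lost in 4 of 13 other settings. Of the 9 tested GST 23-like genes, 4 fell and 2 rose. The remaining tau rise was in the weak U18-like TraesCS5B02G192400, at 0.415 CPM in 0N on average and 1.13 CPM in 2N. It passed the count filter only through its 2N libraries, and its call was lost in 7 of 12 other settings, DESeq2 among them.

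**Figure D2:**
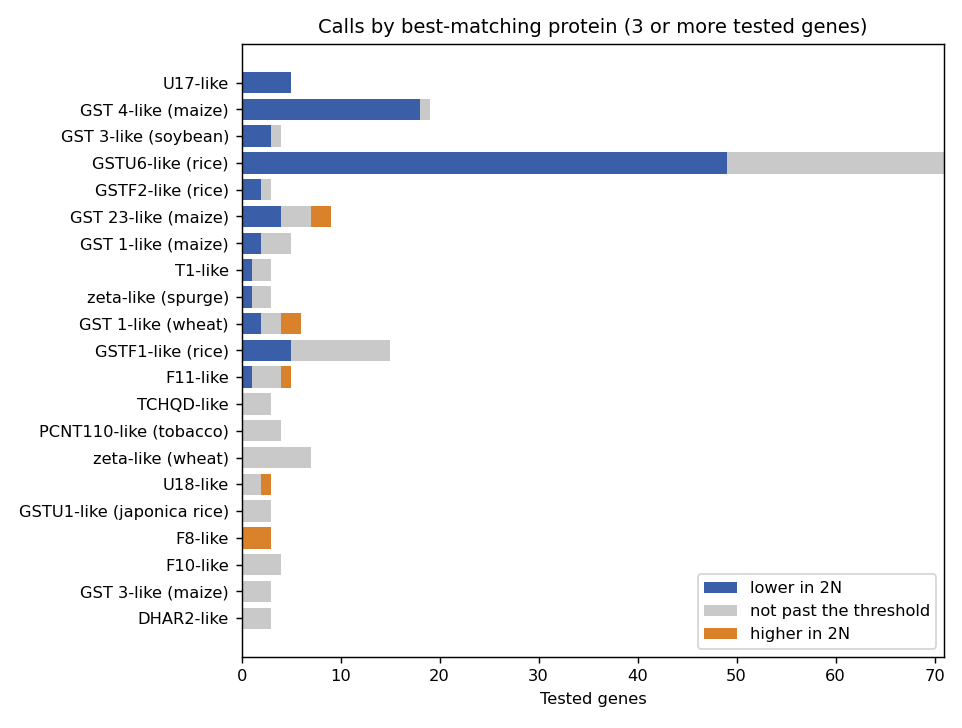
Horizontal bars count the tested genes with the same best-matching protein, for proteins with at least 3 tested genes, ordered by the share that fell, and divide them into genes lower in 2N (blue), not past the threshold (grey) and higher in 2N (orange). The GSTU6-like bar, with 49 of 71 lower, and the GST 4-like bar, with 18 of 19 lower, hold most of the blue, and the F8-like bar is orange throughout.

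In the phi class the falls gathered in the genes like maize GST 4, the safener-inducible enzyme also called GST-IV. Of 19 tested GST 4-like genes, 18 fell, 1 did not pass and none rose (none at an unadjusted p under 0.05 or with DESeq2), with a median log2 fold change of -1.06. The 21 genes gave 1165, 1325 and 1113 CPM in 0N and 757.8, 632.9 and 691.3 CPM in 2N. TraesCS5B02G021800 alone supplied about as much as all the others together. It was at 585.2, 698.4 and 549.2 CPM in 0N and at 406.0, 337.9 and 349.1 CPM in 2N, a 1.68-fold fall (log2 fold change -0.75 ± 0.11 SE, edgeR adjusted p = 0.00037) in the third most abundant transferase gene (643.6 TPM).

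Other abundant phi genes showed almost no difference. The group 3 copies of maize GST 1, the classical herbicide-conjugating enzyme GST-I, were 3 of the 4 most abundant genes of the family by TPM. TraesCS3D02G299900 (794.4 TPM) was at 681.4, 757.7 and 635.7 CPM in 0N and at 747.6, 633.1 and 711.5 CPM in 2N. TraesCS3B02G334500 (688.8 TPM) was at 398.8, 429.1 and 355.4 CPM in 0N and at 419.7, 339.9 and 408.1 CPM in 2N. TraesCS3A02G302100 (458.8 TPM) was at 431.3, 441.1 and 371.2 CPM in 0N and at 434.5, 345.4 and 428.7 CPM in 2N. The groups overlapped in all 3 genes, with log2 fold changes of 0.01 ± 0.10, -0.02 ± 0.11 and -0.04 ± 0.11 (SE) and edgeR adjusted p from 0.86 to 0.96.

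The remaining GST 1-like genes, on the chromosomes of group 1, were weaker and fell steeply. TraesCS1A02G013900 was at 30.3, 25.3 and 23.7 CPM in 0N and at 4.93, 5.18 and 7.08 CPM in 2N (log2 fold change -2.21 ± 0.14 SE, edgeR adjusted p = 2.1e-07). TraesCS1D02G011800 was at 21.3, 16.04 and 16.15 CPM in 0N and at 2.64, 3.49 and 4.96 CPM in 2N (log2 fold change -2.27 ± 0.20 SE). Genes with the same best match thus ranged from almost no difference to a fall of more than 4-fold.

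**Figure D3:**
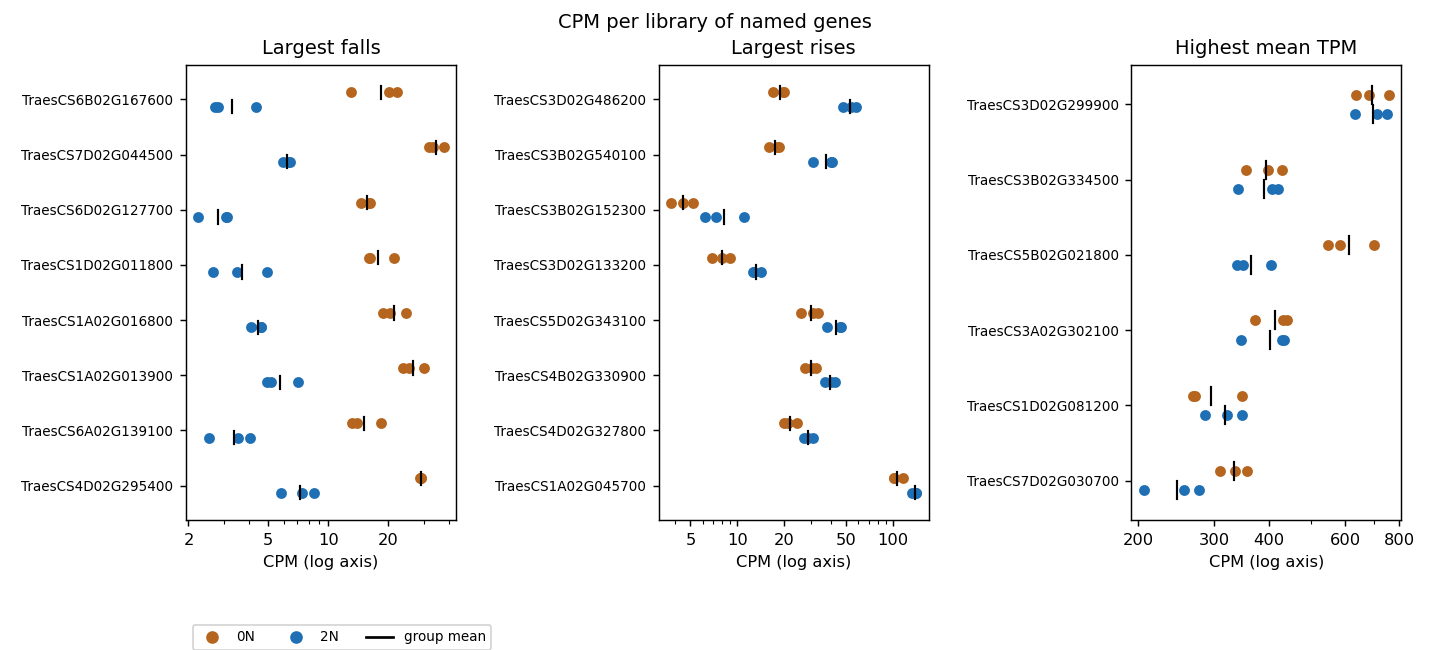
Each point is the CPM of a gene in 1 library (log axis; brown for 0N, blue for 2N), and black ticks are the means of 3 libraries. The left panel holds the 8 largest falls and the middle panel the 8 largest rises among called genes with a mean of at least 5 CPM, where the groups do not overlap, and the right panel holds the 6 genes of highest mean TPM, of which 4 overlap.

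Rice GSTF1-like genes, 23 in all, behaved in the same mixed way. The most abundant, TraesCS1D02G081200 (367.0 TPM), was at 269.9, 348.0 and 267.8 CPM in 0N and 346.4, 285.3 and 321.2 CPM in 2N, and the groups overlapped. TraesCS1A02G078800 had the smallest change of any member above 20 CPM, with 85.5, 104.4 and 88.0 CPM in 0N and 102.1, 85.2 and 90.04 CPM in 2N. Of the 15 tested, 5 fell and none rose (none at an unadjusted p under 0.05 or with DESeq2).

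The phi rises were each less than 2-fold and lay in few groups. All 3 tested genes like Arabidopsis F8, a stress-inducible chloroplast enzyme in that species, rose: TraesCS4B02G330900 from 27.4, 30.3 and 32.3 to 40.4, 42.3 and 36.6 CPM, TraesCS4D02G327800 from 19.97, 24.3 and 21.3 to 28.5, 30.6 and 26.9 CPM, and TraesCS5A02G502300 by 0.38 on the log2 scale. Their increase was about 1.3-fold, and these calls were lost in 3, 6 and 9 of 13 other settings (adjusted p up to 0.076, 0.105 and 0.19), the last of them also with DESeq2. The F11-like TraesCS5D02G343100 rose from 30.7, 25.8 and 33.0 to 46.3, 45.6 and 37.7 CPM (log2 fold change 0.53 ± 0.11 SE, edgeR adjusted p = 0.0048). That call was lost in 2 of 13 other settings, with an adjusted p of up to 0.14.

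Of the 6 tested genes like wheat GST 1, 2 rose and 2 fell. TraesCS3D02G133200 was at 7.97, 6.87 and 9.05 CPM in 0N and at 12.9, 14.3 and 12.6 CPM in 2N (log2 fold change 0.73 ± 0.13 SE, edgeR adjusted p = 0.00094). TraesCS3B02G152300 was at 5.17, 3.74 and 4.46 CPM in 0N and at 11.1, 6.23 and 7.26 CPM in 2N (log2 fold change 0.87 ± 0.21 SE, edgeR adjusted p = 0.017). The 2N libraries of the second gene spread widely, and its call was lost in 4 of 13 other settings.

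Of the 25 tested genes of the smaller classes, 21 did not pass. The DHAR1-like TraesCS1A02G045700, similar to the cytosolic enzyme that recycles ascorbate in rice, rose from 102.0, 115.8 and 101.4 to 142.3, 133.8 and 140.5 CPM (log2 fold change 0.38 ± 0.09 SE, edgeR adjusted p = 0.011). That call was lost in 2 of 13 other settings (adjusted p up to 0.055). Its partner on 1B, TraesCS1B02G059100, was at 152.3, 183.6 and 162.6 CPM in 0N and at 206.5, 201.3 and 184.8 CPM in 2N, with no overlap but an edgeR adjusted p of 0.11. The 3 genes like chloroplastic DHAR2 summed to 4.28 ± 0.83 CPM without and 4.05 ± 0.24 CPM with nitrate (SD, n = 3). None of them passed, at an unadjusted p under 0.05 or with DESeq2.

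All 12 tested zeta genes had a log2 fold change below 0, from -0.45 to -0.03, and 1 of them fell past the threshold (4 at an unadjusted p under 0.05, none with DESeq2). The zeta class summed to 253.9, 250.1 and 245.7 CPM in 0N and 227.1, 218.9 and 219.6 CPM in 2N, which was a narrow but complete separation. Its most abundant gene, TraesCS5D02G062900, was at 42.6, 38.7 and 36.5 CPM in 0N and 34.5, 33.1 and 33.3 CPM in 2N (edgeR adjusted p = 0.13). Theta genes summed to 126, 130.1 and 112.9 CPM in 0N and 102.8, 100.7 and 101.4 CPM in 2N, and 1 of 3 fell. The most abundant of them, TraesCS5B02G572400, did not pass (log2 fold change -0.22 ± 0.10 SE, edgeR adjusted p = 0.16).

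The largest change outside tau and phi was that of TraesCSU02G122000 on unplaced sequence, similar to a yeast omega-like enzyme. It fell from 56.5, 63.6 and 61.6 CPM to 37.7, 28.3 and 32.7 CPM (log2 fold change -0.88 ± 0.11 SE, edgeR adjusted p = 6.6e-05). The 3 TCHQD genes, named for a bacterial dehalogenase that they resemble, summed to 6.03 ± 0.96 CPM without and 6.26 ± 0.45 CPM with nitrate (SD, n = 3), and none passed, also at an unadjusted p under 0.05 and with DESeq2.

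**Figure D4:**
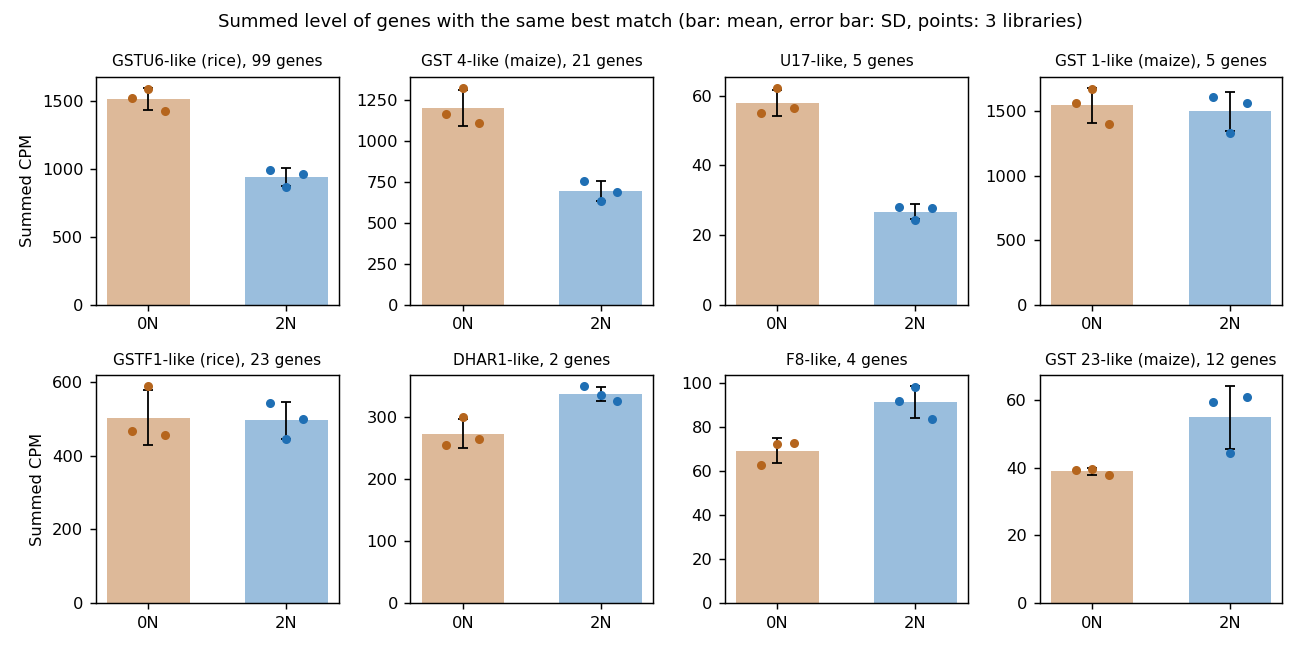
Bars give the mean summed CPM over 3 libraries of all genes with the same best match, in 0N (brown) and 2N (blue), error bars the SD, and points the single libraries, with each vertical axis starting at 0. The GSTU6-like, GST 4-like and U17-like sums were lower in every 2N library, the maize GST 1-like and rice GSTF1-like sums overlapped, and the DHAR1-like, F8-like and GST 23-like sums were higher in every 2N library.

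Because reads of near-identical copies can be divided among them, the division between single genes is uncertain. The deposited counts were whole numbers in all 6 libraries for 140 of the 271 members. Among tested members with whole counts 49 of 88 fell and 3 rose, and among the others 51 of 115 fell and 8 rose. Counts were therefore also summed over all genes of the table with the same protein name, which removes the division within a name. Of 26 tested names in the family, 11 fell, 5 rose and 10 did not pass, while 9.88% of 10233 tested names fell and 9.84% rose. GSTU6 (log2 fold change -0.69 ± 0.08 SE, edgeR adjusted p = 0.0004) and GST 4 (-0.79 ± 0.10 SE, edgeR adjusted p = 0.00037) fell as sums, as did U15, U17, GST 3, omega-like 2, GSTF2, GST 2, T1, the zeta class and the name without a number that belongs to a wheat zeta entry. The falls of the wheat zeta name, GST 2, the zeta class and T1 were lost in 7, 5, 5 and 3 of 9 other settings (edgeR or DESeq2 adjusted p up to 0.16, 0.117, 0.115 and 0.066). The name GST 3 joins soybean tau genes, which fell when summed by entry, with maize phi genes, which did not pass (log2 fold change -0.22).

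The names that rose as sums were U5 (0.87 ± 0.10 SE, edgeR adjusted p = 0.00034), GST 23 (0.49), F8 (0.39), DHAR1 (0.30) and F11 (0.27). With library totals in place of TMM all 5 kept a positive log2 fold change, but DHAR1 and F11 no longer passed (edgeR adjusted p = 0.068 and 0.10). Over 9 other settings, library totals among them, the calls of DHAR1, F11 and GST 23 were lost in 6, 5 and 4 (edgeR or DESeq2 adjusted p up to 0.092, 0.104 and 0.062). The deposited TPM of the F11-like genes went the other way, from a sum of 50.1 TPM in 0N to 47.6 TPM in 2N. GST 1 (-0.05 ± 0.10 SE), which joins maize and wheat phi genes with a carnation zeta enzyme, and GSTF1 (-0.02 ± 0.11 SE) did not pass. Summed by UniProt entry, a choice made after the data were seen, 12 of 35 tested entries fell and 5 rose. The share over all entries of the table was not counted, so nothing is read from these counts.

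Falls were found among abundant and middle copies. Of the 90 genes at a mean of 10 TPM or more, all of which were tested, 45 fell, 7 rose and 38 did not pass, with a median log2 fold change of -0.42. Among all tested genes of that level 8.95% fell, with a median of 0.04. Of 98 genes between 1 and 10 TPM, 96 were tested, 48 fell and 3 rose, with a median of -0.69, where 8.04% of all such genes fell. Of 83 genes under 1 TPM only 17 were tested, 7 fell and 1 rose, where 5.61% of all such genes fell. The 7 weak falls became 1 when the level was taken from 0N alone, 0 at limits of 5 and 0.5 TPM, and 12 at 20 and 2 TPM. The weak group that passed the filter is a selected remainder, and nothing is read from its median.

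Within tau, abundant genes had a median log2 fold change of -0.82 (25 of 44 fell), middle genes one of -1.24 (36 of 56 fell) and the 13 tested of 65 weak genes one of -0.93 (5 fell). Abundant phi genes had a median of -0.42 (17 of 30 fell) and middle phi genes one of -0.30 (12 of 32 fell). These differences were not tested, and the mean TPM that sets the level is itself lowered by a fall. The 10 most abundant genes held 54.0% of the TPM of the whole family, and the 3 most abundant phi genes 50.8% of that of their class.

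At the limit of 10 TPM, TraesCS6D02G127700 (10.8 TPM, log2 fold change -2.46) and TraesCS3B02G535300 (10.4 TPM, -0.07) lay just inside and TraesCS4B02G331100 (9.74 TPM, 0.13) and TraesCS5A02G502500 (9.66 TPM, -0.50) just outside. At 1 TPM, TraesCS4B02G331000 (1.05 TPM, not tested) and TraesCS7D02G192500 (1.03 TPM, 0.16) lay above the limit and TraesCS3A02G021200 (0.972 TPM, -0.93) and TraesCS1A02G017400 (0.958 TPM, -3.31) below it.

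Falls were found in the A, B and D genomes. By the chromosome code in the identifier, 31 of 60 tested genes fell in the A genome (2 rose), 30 of 64 in B (5 rose) and 37 of 77 in D (4 rose), as did both tested genes on unplaced sequence. The differences between genomes were not tested. The shares by chromosome group were not tested either. On 1A, 1B and 1D 14 of 18, 11 of 16 and 13 of 20 fell, and on 2A, 2B and 2D 4 of 5, 4 of 6 and 4 of 5. On 3A, 3B and 3D 3 of 10, 2 of 15 and 6 of 20 fell, and 3B and 3D held 5 of the 11 rises.

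Many members have neighbouring identifiers. Taking members on a chromosome whose identifier numbers lay at most 1000 apart (10 gene steps) gave 21 runs of 3 or more members, a grouping made after the data were seen and given without a test. The runs held 101 members, of which 77 were tested, 46 fell (59.7%) and 6 rose. Genes of other families that lay between members of a run were tested in 21 cases, of which 2 fell and 2 rose. Every tested member fell in 5 runs, none fell in 6, and falls and rises stood side by side in 2. Some of these runs had few tested members. In the run on 2D 1 of 4 members was tested and fell, and in that from TraesCS3A02G487700 1 of 3 was tested and did not pass.

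The longest runs lay on the chromosomes of group 1 and held GSTU6-like and U17-like genes. From TraesCS1A02G186100 to TraesCS1A02G187000, 7 of 8 tested members fell, from TraesCS1B02G194000 to TraesCS1B02G194900 6 of 7, and from TraesCS1D02G189600 to TraesCS1D02G191100 6 of 10. GST 4-like genes formed a second set of runs there, in which 3 of 3, 4 of 5 and 4 of 6 tested members fell on 1A, 1B and 1D. A run of 4 GSTU6-like genes on 6B fell in all 3 tested members. The mixed runs were that of 3D around the U5-like genes, where 2 of 6 tested members fell and 1 rose, and that of 5A with F8-like, F10-like and F11-like genes, where 1 of 3 fell and 1 rose.

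**Figure D5:**
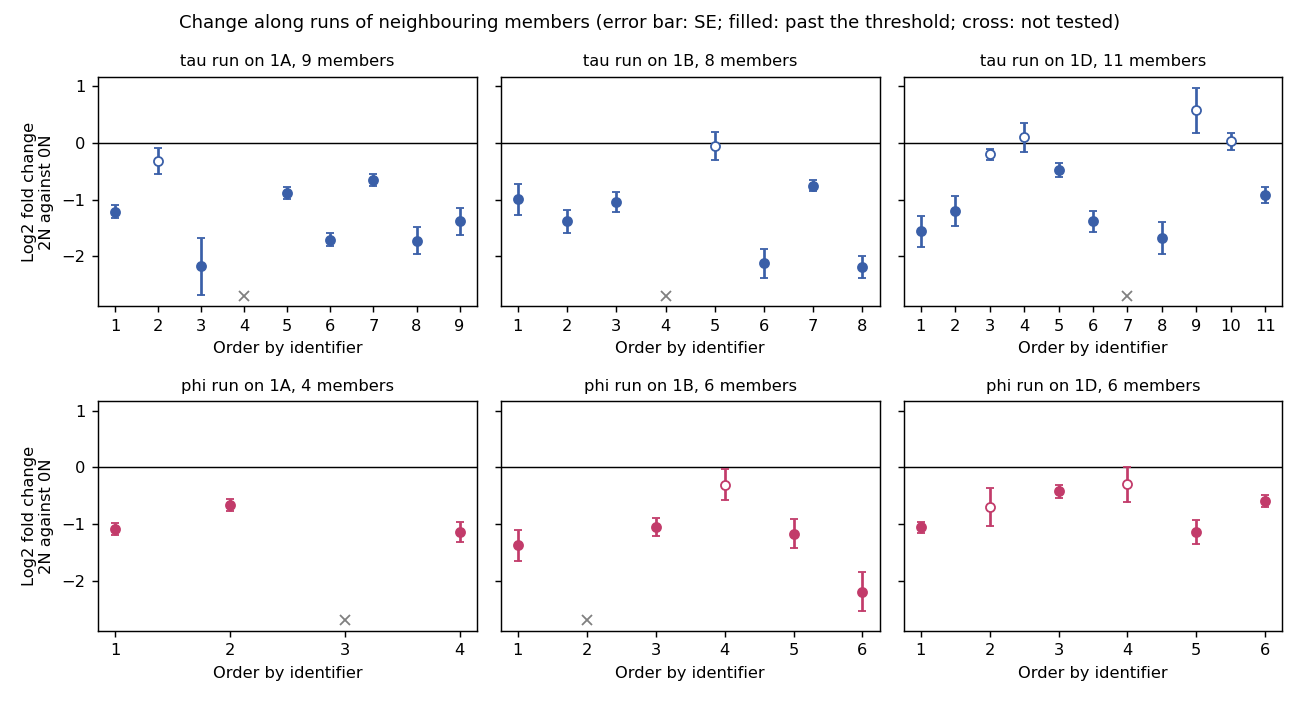
Log2 fold changes, 2N against 0N, of transferase genes along 6 runs on chromosomes 1A, 1B and 1D are shown in the order of their identifiers, with the SE as error bar, tau runs above and phi runs below. Filled circles passed the threshold and crosses at the foot mark members with too few counts to test, and in the tau runs genes that fell stand beside others near 0.

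The other genes of glutathione metabolism were counted in the same fit, and their counts stand against 7.93% falls and 7.57% rises over all tested genes. The enzymes that make glutathione, glutamate-cysteine ligase and glutathione synthetase, had 1 fall and no rise in 12 tested genes (1 rise at an unadjusted p under 0.05, none with DESeq2). The fall was that of the ligase TraesCS1D02G074500, from 51.5, 54.5 and 47.6 to 41.0, 38.1 and 41.5 CPM (log2 fold change -0.35 ± 0.09 SE, edgeR adjusted p = 0.019). The synthetase nearest to a rise, TraesCS5D02G111500, had a log2 fold change of 0.28 (edgeR adjusted p = 0.085).

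Glutathione reductase, which restores glutathione from its oxidised form, had 2 falls in 8 tested genes, both in genes similar to the cytosolic enzyme. TraesCS6D02G368800 went from 72.5, 71.1 and 67.3 to 55.9, 50.0 and 52.9 CPM (log2 fold change -0.41 ± 0.09 SE, edgeR adjusted p = 0.0062), and the chloroplastic-like TraesCS4B02G278900 had a log2 fold change of 0.29 (edgeR adjusted p = 0.17). Glutathione peroxidases, which reduce lipid hydroperoxides, had 2 falls in 9 tested genes by edgeR and none by DESeq2. TraesCS6D02G228800 had a log2 fold change of -0.38 (edgeR adjusted p = 0.041) and TraesCS4A02G142000 one of 0.07 (edgeR adjusted p = 0.70). Neither the reductases nor the peroxidases had a rise by edgeR or DESeq2 (1 and none at an unadjusted p under 0.05).

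Of 17 tested genes listed by name under glutathione breakdown, 4 rose and 2 fell. The list took in every gene named as a gamma-glutamylcyclotransferase, including 4 named only as putative, of which 1 rose. TraesCS5B02G554500, named as a putative gamma-glutamylcyclotransferase, went from 8.38, 7.54 and 8.93 to 20.9, 16.9 and 23.8 CPM (log2 fold change 1.31 ± 0.13 SE, edgeR adjusted p = 1.0e-05). The glutathione hydrolase 3-like TraesCS3D02G076400 fell by 0.47 on the log2 scale (edgeR adjusted p = 0.0042). All 3 genes like glutathione hydrolase 1 were tested and 2 rose, while 2 of 4 like glutathione hydrolase 3 fell.

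Of 58 tested ABC transporters of the C family, 13 fell and 4 rose, with a median log2 fold change of -0.17. The genes with the smallest p in each direction were both similar to member 13. TraesCS5B02G479900 went from 41.9, 35.8 and 43.9 to 21.3, 20.6 and 22.3 CPM, and TraesCS4D02G339000 from 59.6, 49.0 and 57.7 to 83.0, 81.2 and 82.2 CPM. Of 4 tested genes like member 2, which in Arabidopsis carries glutathione conjugates into the vacuole, 3 fell.

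Of 19 tested genes for methylglyoxal removal, the glyoxalases that use glutathione as a cofactor, none passed by edgeR or DESeq2, and 2 had an unadjusted p under 0.05. The smallest p were those of TraesCS5A02G454700 (log2 fold change 0.80, edgeR adjusted p = 0.077) and TraesCS5A02G302800 (-0.26, edgeR adjusted p = 0.089). Genes named after maize IN2-1, a safener-induced relative of the family under another name, had 2 falls in 10 tested genes. TraesCS4D02G201300 went from 4.52, 4.70 and 5.23 to 2.16, 1.11 and 1.33 CPM (log2 fold change -1.65 ± 0.23 SE, edgeR adjusted p = 0.00016), and TraesCS4B02G200000 had a log2 fold change of 0.44 (edgeR adjusted p = 0.43).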

How the data were processed

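Per the labels' protocols, poly(A) RNA of roots was enriched, random-primed and sequenced as circular single-stranded libraries; no strand information is stated. The submitters' processing notes name HISAT and Bowtie2, while the genome build is not given in the sources used here. Per the file headers, the authors deposited expected counts and TPM values per gene, and also FPKM values and a normalised read count (a signal scaled per library), neither of which was used. Of all expected counts, 45.1% were not whole (tolerance 1e-06). Counts were rounded, filtered by filterByExpr (minimum count 10, minimum total 15), scaled by TMM and tested with edgeR 4.0.16 (robust quasi-likelihood, 2-sided) in R 4.3.3. CPM use the scaled library sizes, and levels between genes are compared by TPM. Standard errors were derived from the log2 fold change and the F statistic and are approximate. Counts were also simulated for 2N against 0N (53476 genes tested, 50 changed per size). The fit recovered 36% of 1.5-fold, 74% of 2-fold, 98% of 4-fold and 100% of 8-fold changes, with 38 false calls. The changed genes were drawn only from genes with higher mean counts, so these shares may not hold for weak copies.

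The members and lists were chosen with earlier results of these data known. Named genes are the 6 of highest TPM, the 8 largest rises and falls past the threshold at a mean of at least 5 CPM without overlap, the most abundant of each class, the 4 smallest changes at a mean of at least 20 CPM, and the smallest p in each direction of each other list. Genes named beside them in the text were picked after their values were seen. The reference of 155467 wheat genes (IWGSC CS RefSeq v2.1) matched 0 identifiers, so coordinates and sequences are left out and chromosomes are read from the identifier code. Alternatives were library totals, DESeq2 1.42.0, limma-trend 3.58.1 on log2 TPM (pseudocount 1 or 0.1), no filter, a stricter filter (1 CPM in 3 libraries), a replicate block and leaving out each library.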

Additional observations from a re-analysis of the deposited data

How the results depend on the processing

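Of the 111 genes past the threshold, 78 (75 lower, 3 higher) passed in all 13 other fits of the whole table, between 94 and 110 passed in each, and none had the opposite sign in any. Over the named genes in these fits, 340 values kept their side of the threshold, 19 lost the call and 5 gained it. Named genes that did not pass could change sign and still count among the 340. TraesCS3D02G299900, for instance, had a log2 fold change of 0.012 in the main fit and -0.083 with library totals. Depth limits the weak copies most, since 68 members had too few counts to test.

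Replicate numbers did not pair the samples: deviations of same-numbered libraries correlated at -0.0052, -0.106 and 0.026. With the number as a block in the fit, 98 genes of the family fell and 10 rose, tau had 67 falls and 4 rises, phi 30 and 5, and the other classes 1 and 1, and 9 protein names fell and 4 rose.

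Falls numbered 49 among the 88 tested members with whole counts (tau 30, phi 19, others 0). Without the GSTU6-like and GST 4-like genes 33 falls were left. That leaves fewer genes by construction, since 71 and 19 of the 203 tested genes belong to these groups. Over all tested genes 7.93% fell. Rises numbered 3 among whole counts (tau 1, phi 2, others 0). On log2 TPM with a pseudocount of 1 or 0.1 the family had 6 or 5 rises, phi 1 in either, and the other classes 6 falls in either. DESeq2 gave 2 tau rises and 1 fall in the other classes. Library totals gave 8 falls in the other classes and 3 rising names. They also moved the median log2 fold change of all tested genes to -0.093, from 0.0024 in the main fit. With the IN2-1 relatives the other classes had 5 falls. The log2 ratio of the summed other classes was -0.12 on library totals and -0.18 in TPM. Weak genes that fell numbered 12 at limits of 20 and 2 TPM, 0 at 5 and 0.5 TPM, and 1 when the level was taken from 0N alone. The causes were not tested.

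Leaving out each library in turn gave 90 to 98 falls and 6 to 11 rises in the family, 62 to 65 and 2 to 4 in tau, 25 to 32 and 3 to 6 in phi, 1 to 2 and 0 to 2 in the others, and 7 to 10 falling and 2 to 5 rising names. The family had 6 rises without 0N replicate 1. The summed log2 ratio ran from -0.56 to -0.42 for tau, from -0.30 to -0.17 for phi and from -0.05 to 0.01 for the others, positive only without 0N replicate 2.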
